A study of Mus musculus with 20 samples.

Results

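The genes that make, recycle and break down glutathione (GSH) were followed in the livers of Cse-/- mice deprived of cysteine and of the mice they were compared with. The 9 genes, chosen by their function, were Gclc, Gclm, Gss, Gsr, Ggt1, Ggct, Chac1, Chac2 and Oplah, of 46078 genes in the table of counts. Liver mRNA of 20 male mice was sequenced, with 1 library per mouse. All mice came from the Cse KO line on a mixed 129/C57BL/6 background, were at least 9 weeks old, and were kept on calorie restriction throughout, with the control diet for 3 days and then the diet of their group for 2 days before collection. The groups were Cse+/- mice on the control diet (n = 2), on a diet without cysteine (no-Cys; n = 4) and on a diet without tryptophan (no-Trp; n = 3), with, for the Cse-/- genotype, 4 mice fed no-Cys, 3 fed no-Trp and 4 fed no-Trp with L-buthionine sulfoximine (BSO). BSO blocks the enzyme that Gclc encodes. The no-Trp diet lacks another amino acid and so serves as a control for amino acid deprivation. None of these Cse-/- mice stayed on the control diet after the first 3 days. In the sample labels the control genotype is written WT, whereas the study's list of mice gives those animals as heterozygous; Cse+/- is used here. The mice are named by the number that the table gives them (av01 to av22).

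GSH is a tripeptide of glutamate, cysteine and glycine, and liver is its main producer. Glutamate-cysteine ligase, made of a catalytic subunit (Gclc) and a modifier subunit (Gclm), joins glutamate to cysteine, glutathione synthetase (Gss) adds glycine, and glutathione reductase (Gsr) returns the oxidized dimer to GSH with electrons from NADPH. Inside cells Chac1 and Chac2 split GSH into 5-oxoproline and cysteinylglycine, Ggct acts on other γ-glutamyl amino acids, and 5-oxoprolinase (Oplah) turns 5-oxoproline back into glutamate. Ggt1 cleaves GSH on the outside of the cell and is best known from kidney. Gclc, Gclm and Gsr are known targets of the oxidant-responsive factor NRF2, and Chac1 is a known target of ATF4, the transcription factor of the integrated stress response.

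The sequence upstream of the genes was read for 4 members. Chac1 and Chac2 were taken because they encode enzymes of the same reaction but moved in opposite directions. Of the synthesis genes, Gss was called between the genotypes on the no-Cys diet whereas Gclc and Gclm were not, a contrast that was not tested. Promoters of 6 of the 9 genes, without Gclc among them, were found in the RefSeq table of GRCm38.p6. The stretches lie within the 250 bases before the RefSeq start and end where an annotated exon begins; they are written 5′ to 3′ on the strand of the gene, at chr2:119350992-119351228 (plus) for Chac1, chr3:122245307-122245556 (plus) for Gclm, chr2:155592852-155593060 (minus) for Gss and chr11:30986366-30986615 (minus) for Chac2. Capitals mark matches to the motifs searched.
Chac1: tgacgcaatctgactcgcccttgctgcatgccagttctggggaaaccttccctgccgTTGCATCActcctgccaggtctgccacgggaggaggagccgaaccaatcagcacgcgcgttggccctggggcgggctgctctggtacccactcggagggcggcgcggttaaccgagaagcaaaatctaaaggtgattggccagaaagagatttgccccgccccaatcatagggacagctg
Chac2: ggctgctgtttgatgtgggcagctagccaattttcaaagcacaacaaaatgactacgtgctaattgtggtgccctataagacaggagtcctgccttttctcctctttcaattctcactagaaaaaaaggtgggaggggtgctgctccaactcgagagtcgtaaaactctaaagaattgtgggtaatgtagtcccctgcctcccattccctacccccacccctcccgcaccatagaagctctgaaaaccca
Gclm: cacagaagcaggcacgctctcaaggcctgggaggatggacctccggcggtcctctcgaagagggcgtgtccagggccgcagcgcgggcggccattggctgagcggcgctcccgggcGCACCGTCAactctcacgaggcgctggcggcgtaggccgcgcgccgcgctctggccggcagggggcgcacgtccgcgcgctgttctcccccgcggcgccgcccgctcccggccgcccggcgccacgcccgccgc
Gss: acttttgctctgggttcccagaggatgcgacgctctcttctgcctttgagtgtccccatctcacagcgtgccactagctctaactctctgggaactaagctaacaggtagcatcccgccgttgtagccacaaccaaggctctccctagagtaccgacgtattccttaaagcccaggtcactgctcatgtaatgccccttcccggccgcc
Both strands were searched for TGACNNNGC and TGAGNNNGC, the cores of antioxidant response elements, and for TGATGNAA and TGACGTCA, which ATF4 and related factors are known to bind. The Chac1 stretch held 1 match, TTGCATCA, the reverse of TGATGNAA, from 193 to 186 bases before the start, and 3.45% of 32851 windows of 250 bases held that motif. The Gclm stretch held 1 match, GCACCGTCA, the reverse of TGACNNNGC, from 134 to 126 bases before the start, where 10.2% of windows held the motif. Of the promoters not printed, Ggct held GCGACGTCA, another match to that motif, from 174 to 166 bases before its start. Ggt1, with 4 RefSeq starts, held TGAGCAAGC before the first, GCTGGGTCA before the second, and TGACGCTGC and TGACGTCA before the third. The windows of Gss and Chac2 held none of these letters, which says nothing about other places. Of all windows, 23% held either antioxidant core and 4.97% either of the ATF4 motifs.

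The libraries held 11785740 to 57986121 counts on genes (median 15252745). Levels are given as CPM with library sizes adjusted by TMM factors, which ranged from 0.9029 to 1.115. Cth, the gene of the Cse enzyme, was between 88.4 and 332 CPM in Cse+/- livers and between 6.37 and 14.4 CPM in Cse-/- livers. A list of 7 hepatocyte genes summed to between 48556 and 121509 CPM, so the libraries held the labelled tissue. That sum was lower in Cse-/- no-Cys livers (48556 to 52549 CPM in 3 mice and 78630 CPM in av08) than in Cse+/- no-Cys livers (93745 to 117285 CPM), with 4 of its 7 genes called lower and 1 higher. In the same comparison 3 of 6 tested bile duct genes were lower, with list sums of 29 to 40.2 against 59.7 to 73.5 CPM, as were 5 of 5 red cell genes, with sums of 69.1 to 114 against 201 to 406 CPM. Of 6 stellate and fibroblast genes 2 were lower, of 5 endothelial genes 1 was higher, and of 7 macrophage genes none was called. Between Cse-/- no-Cys and Cse-/- no-Trp livers, 4 of 7 hepatocyte, 1 of 6 bile duct and 3 of 5 red cell genes were lower, and against BSO livers 3 of 7 hepatocyte and 2 of 6 bile duct genes were lower. In the interaction of genotype and diet, 2 hepatocyte genes and 1 red cell gene were lower and 1 endothelial gene was higher. Between Cse+/- no-Cys and control livers 1 of 6 bile duct genes was lower. With BSO none of these genes was called. In bulk liver, fewer cells of a type and less RNA per cell cannot be told apart, and the part of these shifts in the results below was not tested. Kidney tubule genes stood out in 2 libraries, at 23.6 CPM in sum in the control av22 and 7.98 CPM in the Cse-/- no-Trp liver av15, against at most 1.44 CPM in the others. Pancreas acinar genes summed to at most 1.9 CPM.

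Among the 8 genes with enough counts for a test, the largest number was called between Cse-/- and Cse+/- livers on the no-Cys diet, which asks what the loss of the enzyme adds when dietary cysteine is absent. Gsr, Gss, Chac1 and Oplah were higher and Chac2 was lower, at an adjusted p under 0.05 by edgeR's quasi-likelihood test over 14759 genes. The count of 5 of 8 stands beside 23.8% of all tested genes, of which 11.6% were higher and 12.2% lower. The median log2 fold change of the 8 genes was 0.45, against -0.01 over all genes. When the Cse-/- livers on the no-Cys diet were compared with Cse-/- livers on the no-Trp diet, which asks what cysteine removal does beyond the removal of another amino acid, 2 of 8 were higher (Gsr and Gss) and none was lower, where 10.4% of all genes were called, 5.05% higher; 7 of the 8 had an unadjusted p under 0.05, against 26.5% of all genes. These 2 comparisons share the same 4 Cse-/- no-Cys livers.

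**Figure D1:**
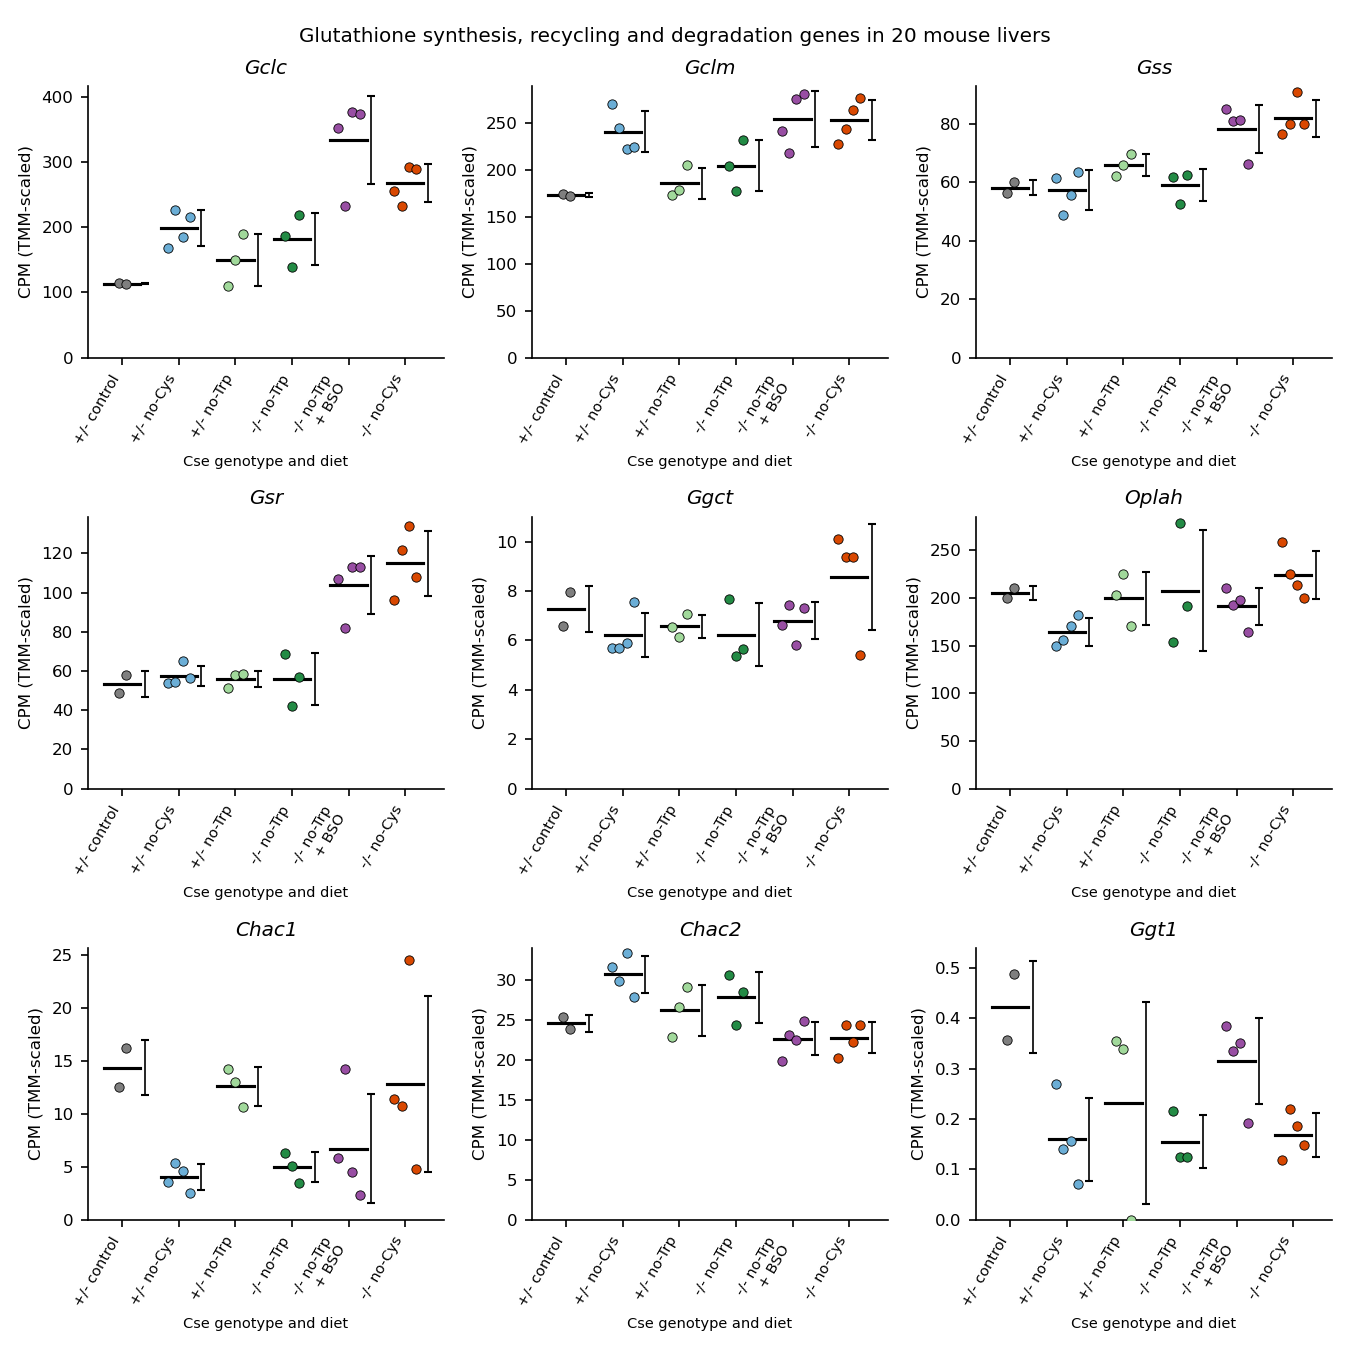
CPM (TMM-scaled) of the 9 genes in 20 livers, with 1 point per mouse, the mean of each group as a line and its SD as a bar; the horizontal axis gives Cse genotype and diet, and each vertical axis starts at 0. Gsr is between 82.1 and 134 CPM in the Cse-/- no-Cys and the Cse-/- no-Trp + BSO livers and between 42.1 and 68.5 CPM in all others, whereas Chac1 is high in control, Cse+/- no-Trp and most Cse-/- no-Cys livers.

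**Figure D2:**
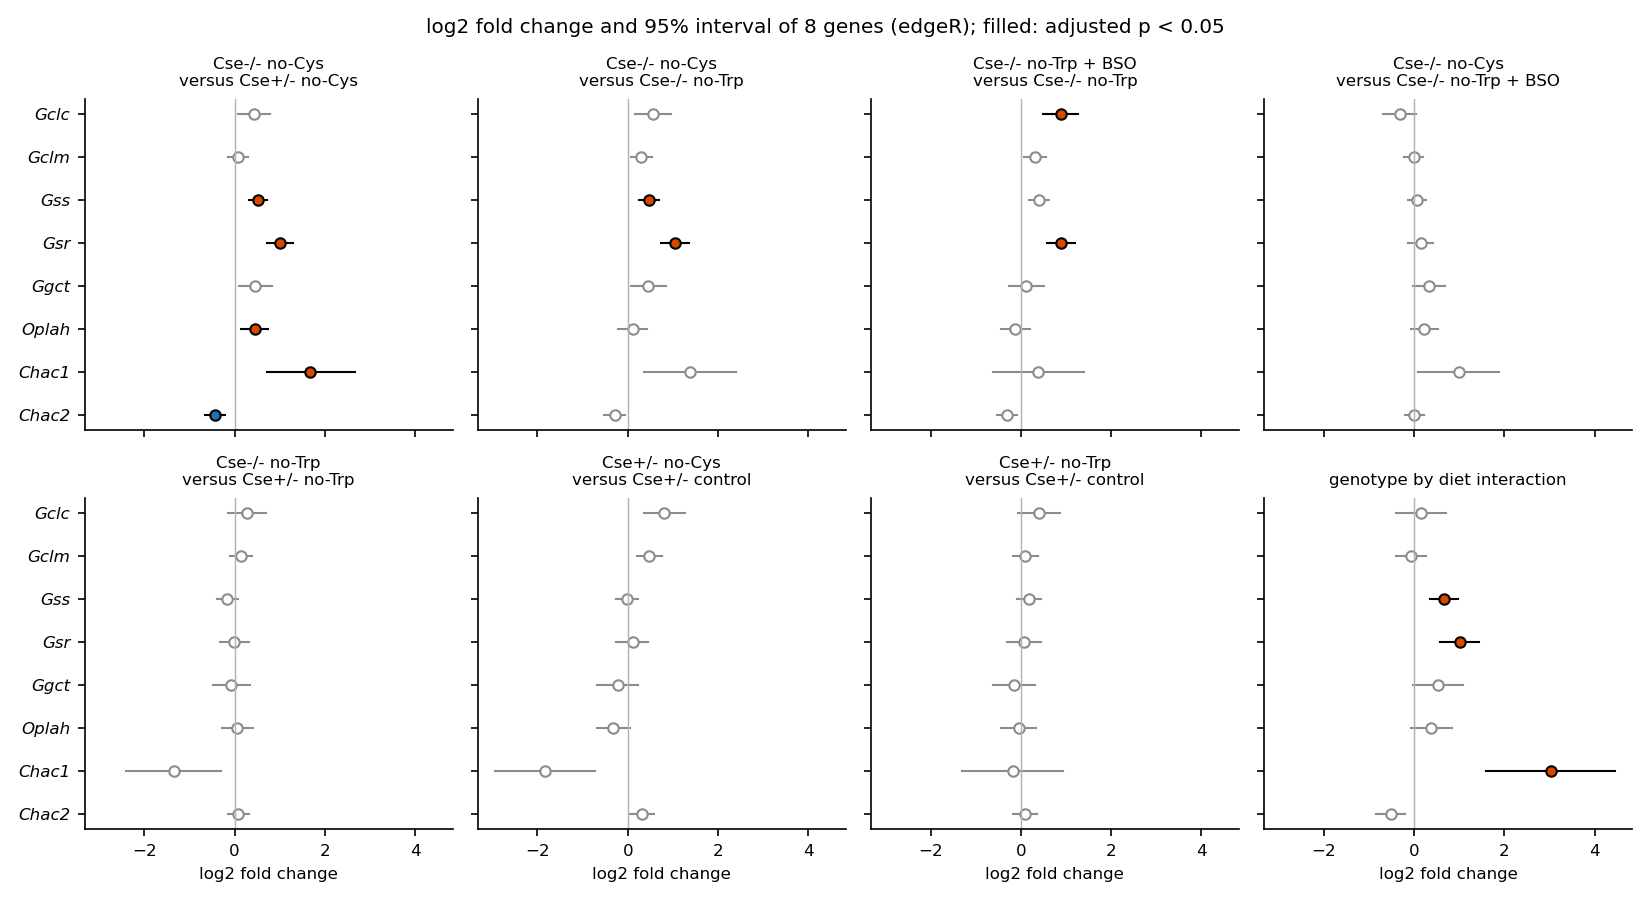
log2 fold change (horizontal axis) and 95% confidence interval of the 8 tested genes in 8 comparisons, with filled points where the adjusted p was under 0.05 (orange higher, blue lower). Filled points are seen in 4 of the 8 panels: both comparisons of Cse-/- no-Cys livers with livers off BSO, the BSO comparison and the interaction.

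Synthesis begins with Gclc (chromosome 9, 77754535 to 77794485, plus strand of GRCm38), the catalytic subunit of the ligase. Its level was 114 and 113 CPM in the 2 control livers, 168, 227, 185 and 215 CPM in Cse+/- no-Cys livers and 110, 150 and 190 CPM in Cse+/- no-Trp livers. In Cse-/- mice it was 187, 139 and 218 CPM on no-Trp, 352, 233, 376 and 374 CPM on no-Trp + BSO, and 255, 233, 293 and 289 CPM on no-Cys. The control livers were thus among the lowest and the BSO livers, apart from av10 at 233 CPM, the highest of the 20. With BSO on the no-Trp diet Gclc was 1.84-fold higher (log2 fold change 0.88 ± 0.189 SE, adjusted p = 0.0315), and these groups did not overlap. The call was kept without av10 (1.01, adjusted p = 0.00629) or av16 (1.02, adjusted p = 0.0367) and lost when the fit held only the 2 groups (0.87, adjusted p = 0.0729). It was also lost with any of 5 other mice left out: without av09, av11, av12, av14 or av15 the adjusted p was 0.11, 0.103, 0.087, 0.0771 or 0.18, with log2 fold changes of 0.84, 0.82, 0.81, 0.90 and 0.71. The genotypes differed by a log2 fold change of 0.43 ± 0.172 on no-Cys (adjusted p = 0.078) although the 2 groups did not overlap, as was the case for 23.2% of all genes; it passed the test without the filter (adjusted p = 0.0458) and with only the 2 groups in the fit (adjusted p = 0.0319). Against Cse-/- no-Trp livers, Gclc in Cse-/- no-Cys livers was at 0.56 ± 0.187 by edgeR (adjusted p = 0.0616). That difference passed with DESeq2 (adjusted p = 0.0261) and without the filter (adjusted p = 0.0311). It did not pass with only the 2 groups in the fit (adjusted p = 0.08). Nor did it pass with any mouse of these groups left out (adjusted p from 0.0514 to 0.212).

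Gclc was also read in Cse+/- mice, which still have the Cse enzyme, with and without dietary cysteine. All 4 Cse+/- no-Cys livers lay above both control livers, with a log2 fold change of 0.81 ± 0.218 (95% interval 0.35 to 1.27, adjusted p = 0.0553). Without av01 it was 0.89 and the adjusted p 0.0397; with any other mouse of these groups left out it was 0.74 to 0.85, with an adjusted p from 0.0754 (without av03) to 0.423 (without the control av22). The adjusted p was 0.0101 without the filter, 0.0373 with only these groups in the fit and 0.0079 by the Wald test of DESeq2. In this comparison none of the 8 genes passed edgeR's test, 4 had an unadjusted p under 0.05 and DESeq2 called 2, Gclc and Gclm, where DESeq2 called 4.68% of the genes it tested. edgeR called 2.18% of all genes and 16.6% had an unadjusted p under 0.05.

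Gclm (chromosome 3, 122245557 to 122270732, plus strand), the modifier subunit that makes the ligase more active, varied less. It was 175 and 172 CPM in control livers, 270, 245, 223 and 225 CPM in Cse+/- no-Cys livers, and 174, 179 and 205 CPM in Cse+/- no-Trp livers. The Cse-/- livers had 204, 178 and 232 CPM on no-Trp, 242, 218, 276 and 281 CPM on no-Trp + BSO and 228, 244, 264 and 277 CPM on no-Cys. The genotypes on the no-Cys diet overlapped, at a log2 fold change of 0.07 (95% interval -0.15 to 0.29, adjusted p = 0.659). The values of Cse+/- no-Cys livers all lay above the controls, with a log2 fold change of 0.47 ± 0.131 that did not pass edgeR's test (adjusted p = 0.0626) and passed that of DESeq2 (adjusted p = 0.0117). Between Cse-/- livers on no-Cys and no-Trp it was at 0.30 ± 0.114 (adjusted p = 0.091 by edgeR and 0.0499 by DESeq2).

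Both subunits are needed for full activity, so their levels were also set side by side per length, as CPM per kilobase of exons. The ratio of Gclc to Gclm was 1.09 ± 0.0101 (SD, n = 2) in control livers, 1.39 ± 0.252 (n = 4) in Cse+/- no-Cys livers and 1.33 ± 0.252 (n = 3) in Cse+/- no-Trp livers. In Cse-/- livers it was 1.47 ± 0.136 (n = 3) on no-Trp, 1.77 ± 0.127 (n = 4) on no-Cys and 2.18 ± 0.278 (n = 4) on no-Trp + BSO. The lowest BSO liver, at 1.78, lay above the highest no-Trp liver, at 1.57. These ratios are given as a description, with no test.

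**Figure D3:**
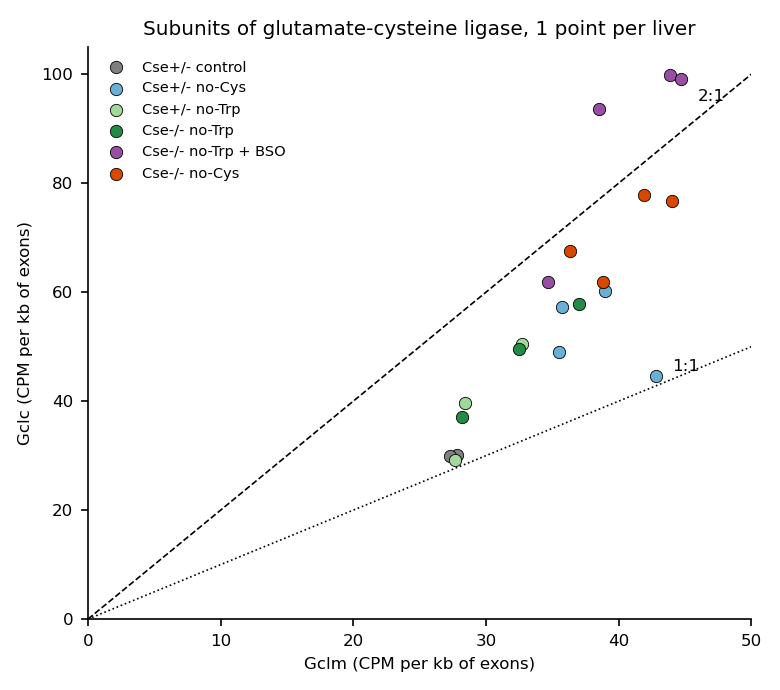
Gclc against Gclm in CPM per kilobase of exons, with 1 point per liver, coloured by genotype and diet; dotted and dashed lines mark equal levels and a ratio of 2. The Cse-/- no-Trp + BSO livers have ratios between 1.78 and 2.43, whereas the 2 control livers lie near the line of equal levels, at 1.09 and 1.1.

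Gss (chromosome 2, 155563181 to 155592810, minus strand), which completes the tripeptide, was higher in Cse-/- than in Cse+/- livers on no-Cys; its difference from the change of Gclc or Gclm was not tested. It was 76.6, 80.1, 90.9 and 80.1 CPM in Cse-/- no-Cys livers and 61.6, 48.7, 55.6 and 63.6 CPM in Cse+/- no-Cys livers. The groups did not overlap, and the log2 fold change of 0.51 ± 0.098 (1.43-fold, adjusted p = 0.000884) passed the test under every alternative, with a range of 0.44 to 0.57. Cse-/- livers on no-Trp had 62, 52.7 and 62.7 CPM, also all below the no-Cys livers (log2 fold change 0.47 ± 0.106, adjusted p = 0.00912). With BSO the values were 85.1, 80.9, 81.2 and 66.4 CPM, above every no-Trp liver, but this difference did not pass edgeR's test (log2 fold change 0.40 ± 0.106, adjusted p = 0.0785; 0.0193 by DESeq2). The Cse+/- livers on control had 56.4 and 60 CPM and those on no-Trp 62.1, 65.8 and 69.7 CPM. Of the 61-base words of Gss transcripts, 9.2% also lie in another gene, most of them in Acss2 on the opposite strand, and the library kit does not mark strand, so reads there cannot be assigned to either gene.

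Recycling depends on Gsr (chromosome 8, 33652523 to 33698163, plus strand), which had the largest called change among the genes of synthesis and recycling. Cse-/- no-Cys livers had 96, 122, 134 and 108 CPM and Cse+/- no-Cys livers 53.8, 54.5, 64.9 and 56.5 CPM, a 2.01-fold difference (log2 fold change 1.00 ± 0.139, adjusted p = 5.2e-05). Cse-/- livers on no-Trp had 68.5, 42.1 and 56.8 CPM and, with BSO added, 107, 82.1, 113 and 113 CPM. Gsr was therefore higher under BSO as well, 1.86-fold (log2 fold change 0.90 ± 0.15, adjusted p = 0.00507), without overlap. The remaining Cse+/- livers had 48.7 and 57.9 CPM on control and 51.3, 57.8 and 58.5 CPM on no-Trp, within the range of the Cse-/- no-Trp livers. Each of the 3 calls held under every alternative, with log2 fold changes of 0.94 to 1.09 between genotypes on no-Cys, 0.87 to 1.22 between Cse-/- livers on no-Cys and no-Trp, and 0.72 to 1.07 with BSO.

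The BSO comparison asks what inhibition of GSH synthesis does where cysteine is present in the diet. It called 2 of the 8 genes, Gclc and Gsr, both higher, where 0.793% of all genes were called, 0.488% higher. Between Cse-/- no-Cys and Cse-/- no-Trp + BSO livers none of the 8 was called by edgeR or by DESeq2, 1 (Chac1) had an unadjusted p under 0.05, as did 20% of all genes, and 2.75% of all genes were called. The intervals of the log2 difference in that comparison were -0.14 to 0.43 for Gsr, -0.14 to 0.27 for Gss, -0.23 to 0.21 for Gclm and -0.68 to 0.04 for Gclc. Those for the degradation genes were wider for Chac1, at 0.08 to 1.89, and narrow for Chac2, at -0.20 to 0.22.

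Degradation inside the cell was measured with Chac1 and Chac2, which moved apart. Chac1 (chromosome 2, 119351229 to 119354381, plus strand) is the enzyme whose RNA is induced under stress in many cells. It was 11.4, 10.7, 24.5 and 4.8 CPM in Cse-/- no-Cys livers and 3.6, 5.36, 4.59 and 2.48 CPM in Cse+/- no-Cys livers. The log2 fold change was 1.68 ± 0.465 (3.21-fold, adjusted p = 0.0129), but av08, at 4.8 CPM, fell within the range of the Cse+/- livers, and without av07, at 24.5 CPM, the log2 fold change was 1.18 and the adjusted p 0.0695. Control livers had 12.5 and 16.2 CPM and Cse+/- no-Trp livers 14.2, 13 and 10.6 CPM, and these ranges overlapped with that of the Cse-/- no-Cys livers. The lowest groups in mean were Cse+/- no-Cys and Cse-/- no-Trp, the latter at 6.3, 5.11 and 3.48 CPM. Cse-/- livers on no-Trp + BSO had 5.81, 14.2, 4.49 and 2.37 CPM, and 1 of these 4 (av10) reached the control range.

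No difference of Chac1 in the 2 comparisons with control livers, or between genotypes on no-Trp, passed edgeR's test over the 14759 genes kept by the filter. It was at a log2 fold change of -1.83 ± 0.533 between Cse+/- no-Cys and control livers (95% interval -2.95 to -0.72, adjusted p = 0.0775), with no overlap between the groups, as for 25.6% of all genes with these group sizes. The adjusted p was 0.00322 without the filter on low counts (log2 fold change -1.84) and 0.0159 when the fit held only the groups compared. It was 0.107 to 0.133 with any of the Cse+/- no-Cys mice left out. Without the control av21 or av22 the log2 fold change was -2.01 or -1.64. Between Cse-/- and Cse+/- livers on no-Trp, Chac1 was at -1.35 ± 0.503 (adjusted p = 0.156). The adjusted p there was 0.0297 without the filter and 0.0484 when the fit held only these groups. With any mouse of these groups left out it was 0.139 to 0.326. Chac1 was the 1 gene of the 8 with an unadjusted p under 0.05 in this comparison. edgeR and DESeq2 called none of the 8 there, where edgeR called 2.64% of all genes and 18.4% had an unadjusted p under 0.05. Between Cse+/- no-Trp and control livers, Chac1 was at -0.18 ± 0.536 (adjusted p = 0.95), neither tool called any of the 8, none had an unadjusted p under 0.05 (9.29% of all genes did), and 0.0474% of all genes were called. Against Cse-/- no-Trp livers, Chac1 in Cse-/- no-Cys livers was at 1.38 ± 0.484 (adjusted p = 0.0727), at 1.37 without the filter (adjusted p = 0.0104), at 1.65 without av08 (adjusted p = 0.0225) and at 0.87 without av07 (adjusted p = 0.259). The values with 1 mouse left out thus lay on either side of the threshold. Against the BSO livers Chac1 was at 0.99 ± 0.432 (adjusted p = 0.209), at 1.60 without av10 (adjusted p = 0.0439) and at 0.47 without av07 (adjusted p = 0.582).

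Other genes that depend on ATF4 were read in the same livers. Their list was chosen with earlier results of these data known, so its counts are a description. Between the genotypes on no-Cys, 10 genes of a list of 15 were higher in Cse-/- livers and 1, Cebpb, was lower, beside 11.6% of all genes higher and 12.2% lower; the median log2 fold change was 1.63 against -0.01 over all genes. Psat1, an enzyme of serine synthesis, had the largest change, 5.83 ± 0.404 on the log2 scale (adjusted p = 3.29e-08), from 1.01 ± 0.0849 to 57.9 ± 16.1 CPM (SD, n = 4 each). The order of the groups differed between these genes and Chac1. Trib3, a pseudokinase induced by ATF4, was 7.4 ± 2.58 CPM (n = 2) in controls, 7.63 ± 0.853 CPM (n = 3) in Cse+/- no-Trp livers and 33.3 ± 6.33 CPM (n = 3) in Cse-/- no-Trp livers, where Chac1 was at 14.3 ± 2.59, 12.6 ± 1.82 and 4.96 ± 1.42 CPM. On the no-Trp diet, where 2.64% of all genes were called, 3 of the 15 genes were higher in Cse-/- livers, namely Asns at 2.96 ± 0.577 (adjusted p = 0.0107), Psat1 at 2.33 ± 0.383 (adjusted p = 0.00345) and Trib3 at 2.12 ± 0.241 (adjusted p = 9.49e-05), against the value of -1.35 for Chac1. Trib3 was also higher in Cse+/- no-Cys livers than in controls (1.20 ± 0.275, adjusted p = 0.0247), the 1 gene of the 15 called there beside 2.18% of all genes, where Chac1 was at -1.83.

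**Figure D4:**
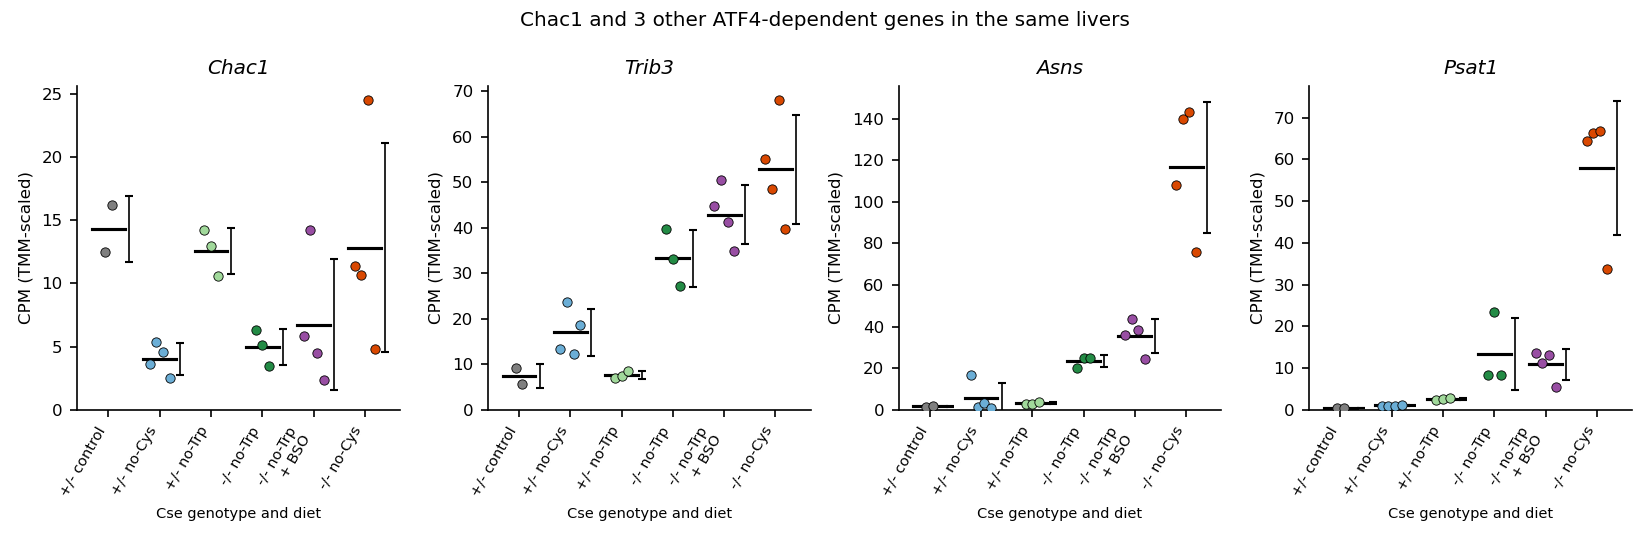
CPM (TMM-scaled) of Chac1, Trib3, Asns and Psat1 in the same 20 livers, with 1 point per mouse, the mean of each group as a line and its SD as a bar; the horizontal axis gives Cse genotype and diet. Asns and Psat1 are highest in the 4 Cse-/- no-Cys livers, whereas Chac1 in the 2 control livers, at 12.5 and 16.2 CPM, lies above 3 of those 4.

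Chac2 (chromosome 11, 30976707 to 30986350, minus strand), the constitutive enzyme of the pair, was the 1 gene that fell. It was 20.2, 24.3, 22.2 and 24.3 CPM in Cse-/- no-Cys livers and 31.6, 29.9, 33.3 and 27.9 CPM in Cse+/- no-Cys livers, with no overlap (log2 fold change -0.43 ± 0.102, adjusted p = 0.00424). The call held under every alternative. Livers given BSO had 19.9, 23.1, 22.5 and 24.9 CPM, overlapping with the Cse-/- no-Cys livers, and Cse-/- no-Trp livers 30.6, 24.3 and 28.5 CPM. Those 2 differences from the Cse-/- no-Trp livers were -0.30 ± 0.107 (adjusted p = 0.197) for BSO and -0.29 ± 0.108 (adjusted p = 0.0869) for no-Cys, the latter -0.38 without av15 (adjusted p = 0.04). Controls had 25.3 and 23.8 CPM and Cse+/- no-Trp livers 22.8, 26.6 and 29.1 CPM, so the Cse-/- no-Cys livers lay near the controls and the Cse+/- no-Cys livers above them (0.32 ± 0.125, adjusted p = 0.197).

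Per kilobase of exons Chac2 exceeded Chac1 in every group mean. The mean ratio of Chac1 to Chac2 was 0.47 in control, 0.396 in Cse+/- no-Trp and 0.463 in Cse-/- no-Cys livers, and 0.104 in Cse+/- no-Cys, 0.144 in Cse-/- no-Trp and 0.241 in BSO livers. The single Cse-/- no-Cys livers spread from 0.159 to 0.887. The ratio was not tested.

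Ggct (chromosome 6, 54982580 to 54992950, minus strand), which releases 5-oxoproline from γ-glutamyl amino acids, was the least abundant of the tested genes per kilobase. It was 10.1, 9.39, 9.37 and 5.39 CPM in Cse-/- no-Cys livers and 5.68, 5.71, 5.91 and 7.57 CPM in Cse+/- no-Cys livers. In each group 1 mouse, av08 and av04, lay on the side of the other genotype, and the log2 fold change of 0.46 ± 0.176 did not pass the test (adjusted p = 0.0629). Without av08 it was 0.63 (adjusted p = 0.0049) and without av04 0.57 (adjusted p = 0.0382). Without av08 Ggct was also called against Cse-/- no-Trp livers (0.62, adjusted p = 0.0137, from 0.46 and 0.121) and against BSO livers (0.50, adjusted p = 0.043, from 0.33 and 0.279). In av08 the hepatocyte genes, at 78630 CPM in sum, were also nearer to the other groups; the part of that in these values was not tested. The other 12 livers had between 5.36 and 7.94 CPM.

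Oplah (chromosome 15, 76296601 to 76328015, minus strand), which recovers glutamate from the product of Chac1, Chac2 and Ggct, was 258, 225, 213 and 200 CPM in Cse-/- no-Cys livers and 149, 156, 171 and 182 CPM in Cse+/- no-Cys livers. The groups did not overlap, and the log2 fold change was 0.45 ± 0.143 (adjusted p = 0.0293). The call was lost without av01, av02, av05 or av06, with adjusted p of 0.0713, 0.0742, 0.0868 and 0.0578 and log2 fold changes of 0.40, 0.42, 0.38 and 0.44. As with Chac1, the control livers, at 200 and 210 CPM, and the Cse+/- no-Trp livers, at 203, 225 and 170 CPM, overlapped with the Cse-/- no-Cys livers, and the Cse+/- no-Cys livers were the lowest group. Cse-/- livers had 154, 278 and 191 CPM on no-Trp and 210, 192, 198 and 164 CPM with BSO. The highest of all, av15 at 278 CPM, was one of the libraries with kidney tubule genes, and the part of these in its value was not tested. Exosc4, on the opposite strand, holds most of the 9.27% of 61-base words that Oplah shares with other genes.

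Ggt1 (chromosome 10, 75561604 to 75586200, plus strand), the enzyme of the cell surface, was close to the limit of detection in liver. It had 99 counts in all 20 libraries together and did not pass the filter on low counts. Its level was at most 0.487 CPM, in the control av22, which also had the highest sum of kidney tubule genes. In av20 it had 0 of 21281183 counts, which allows up to 0.141 CPM, with counting error only considered. Group ranges overlapped between all neighbours in the order of group means, and no difference was read from them.

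Whether the genotype difference depended on the diet was tested as the difference between no-Cys and no-Trp, with the 14 livers on those 2 diets without BSO. Gss, Gsr and Chac1 were called, 3 of 8, all with a more positive log2 difference between Cse-/- and Cse+/- livers on no-Cys than on no-Trp, where 4.36% of all genes were called and 1.67% in that direction. The interaction was 1.01 ± 0.21 for Gsr (adjusted p = 0.0104), 0.67 ± 0.149 for Gss (adjusted p = 0.0149) and 3.03 ± 0.686 for Chac1 (adjusted p = 0.0164), all on the log2 scale. For Gsr and Gss the genotype difference on no-Trp was near 0, at -0.0017 (95% interval -0.33 to 0.33) and -0.16 (-0.39 to 0.08). For Chac1 it combined 1.68 on no-Cys with -1.35 on no-Trp. Chac2 was at -0.52 ± 0.153 (adjusted p = 0.0587), and -0.55, -0.60 and -0.60 without av08, av15 and av20 (adjusted p = 0.0394, 0.0365 and 0.047), and DESeq2 called it on all libraries (-0.52, adjusted p = 0.0344). Gclc and Gclm had intervals of -0.40 to 0.70 and -0.40 to 0.27.

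Of 14 tested genes of the NRF2 pathway outside these 9, the genotypes on no-Cys differed in 10, with 8 higher and 2 lower in Cse-/- livers, 6 were higher in Cse-/- livers on no-Cys than on no-Trp, and 3 were higher with BSO. Of all genes, 11.6% were higher and 12.2% lower in the first of these comparisons, 5.05% higher in the next and 0.488% higher with BSO. The list of NRF2 genes was chosen with earlier results of these data known, so its counts are a description. Nqo1, a quinone reductase and standard NRF2 target, had the largest change in each of the 3, at 2.29 ± 0.25, 2.03 ± 0.264 and 1.87 ± 0.261 on the log2 scale (adjusted p = 4.49e-06, 0.000137 and 0.00154). Srxn1, which repairs oxidized peroxiredoxins, was 91.1 ± 11.3 CPM (SD, n = 4) in Cse-/- no-Cys and 72.7 ± 10.5 CPM (n = 4) in BSO livers, against 17.2 to 26.7 CPM in the means of the other groups. Of the NRF2 targets among the 9, edgeR called Gsr in all 3 comparisons, Gclc in that with BSO and Gclm in none, DESeq2 also called Gclc and Gclm between Cse-/- livers on no-Cys and no-Trp, where it called 14.4% of its genes, and the difference between these genes was not tested. The gene of NRF2 itself, Nfe2l2, was lower between genotypes on no-Cys (-0.41 ± 0.118, adjusted p = 0.0157) and higher in Cse+/- no-Cys livers than in controls (0.67 ± 0.148, adjusted p = 0.0201). In the latter comparison 2 of the 14 were higher, Nfe2l2 and Me1, beside 2.18% of all genes called.

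Of 14 tested genes that use GSH, 2 were higher and 2 lower between genotypes on no-Cys, a share near the 23.8% of all genes called there, and the median log2 fold change was -0.05. Gpx4, which reduces lipid peroxides with GSH, was higher (0.53 ± 0.102, adjusted p = 0.00098), and Glo1, which detoxifies methylglyoxal with GSH, was lower (-0.74 ± 0.0914, adjusted p = 1.6e-05). Of 9 genes that transport GSH or its conjugates, 3 were higher, beside 11.6% of all genes, and none lower: Abcc4 at 2.75 ± 0.273 (adjusted p = 1.78e-06), Abcc3 at 1.41 ± 0.133 (adjusted p = 8.7e-07) and Slc25a39, needed for GSH import into mitochondria, at 0.56 ± 0.103 (adjusted p = 0.000676). With BSO, none of the 14 and 1 of the 9 (Abcc3, 0.66 ± 0.143, adjusted p = 0.0318) were called, beside 0.793% of all genes.

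The 8 tested genes did not vary as a unit across the 20 livers. Pearson's r of log2 CPM between pairs ran from -0.702 (Chac2 and Oplah) to 0.868 (Gclc and Gclm), with a median of 0.127 over 28 pairs and 17 above 0. Gsr was closest to Pir (r = 0.956), Pgrmc1 and Cyp2a5, Gclc to Ugt2b36 (0.917), Ugt2b5 and Ugt2b35, and Gclm to Abcc2 (0.888), Gm13421 and Gclc. Gss was closest to Eif6 (0.889), Grina and Gpx4, Chac2 to Sucnr1 (0.859) and Stard4, and Chac1 to D430019H16Rik (0.858), Zfp612 and E030018B13Rik. Ggct was closest to Bud23 (0.812) and Atp6v1e1, and Oplah to Gpatch2l (0.875), Tmem120a and Pnpla2. These coefficients describe livers that fall into 6 groups and share libraries, and no test was made of them.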

How the data were processed

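Liver mRNA was purified by poly(A) selection, sequenced with paired reads, aligned by the authors to GRCm38 with HISAT2 2.1.0 and counted on genes with HTSeq 0.11.0, per the submitters' processing notes, with an annotation release not given in the sources used here. Deposited values are raw counts per gene, without normalization. Of the 21 columns of the table, 20 were used, grouped by the list of mice; 1 was not, since its group is not given. Mice are separate biological replicates per the labels.

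Genes were kept by filterByExpr of edgeR 4.0.16 (minimum count 10, minimum total 15; R 4.3.3), which left 14759, and scaled with TMM factors. Group means of the 6 groups were fitted to all 20 libraries by quasi-likelihood; two-sided p-values were adjusted (Benjamini-Hochberg) across all tested genes and read at 0.05. A standard error is the size of the log2 fold change over the square root of F. The script was tested on simulated data. Comparisons that share a group are not independent. Alternatives were upper-quartile or RLE scaling, DESeq2 1.42.0 (Wald), omitting the filter or keeping genes with a mean CPM from 1 up, fitting the compared groups alone, a threshold of 0.01, and dropping each library in turn. Correlations used log2 CPM with a prior count of 2. For each pathway list the called genes with the highest and lowest log2 fold change were named (Srxn1 and Abcc3 were added after their values were seen), and for each tested gene the 3 genes most like it, of which 2 are not reported here. The members and lists were chosen with earlier results of these data known. Promoter sequences are from RefSeq (GRCm38.p6); gene positions are from an annotation of GRCm38.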

Additional observations from a re-analysis of the deposited data

Results flagged for a closer look

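Of 24 pairs of a gene and a group of 4 livers, 3 held a liver far from the others by Dixon's criterion, which chance alone meets in about 1 of 20 such groups. Gclc was 233 CPM in av10 against 352 to 376 CPM in the other livers with BSO. For Ggct, av04 had 7.57 CPM where the remaining Cse+/- no-Cys livers had 5.68 to 5.91 CPM, and av08 had 5.39 CPM where the remaining Cse-/- no-Cys livers had 9.37 to 10.1 CPM.

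The log2 difference between Cse-/- and Cse+/- livers on no-Cys minus that on no-Trp passed edgeR's interaction test for Gss (0.67, adjusted p = 0.0149, from 0.51 and -0.16), Gsr (1.01, adjusted p = 0.0104, from 1.00 and -0.0017) and Chac1 (3.03, adjusted p = 0.0164, from 1.68 and -1.35, of opposite sign), each with 4 and 4 livers on no-Cys and 3 and 3 on no-Trp.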

How the results depend on the processing

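Over all genes, comparisons and alternatives, 892 results for a single gene stayed on their side of the threshold, 27 passed it newly and 17 no longer passed. No called gene changed sign. Some results that were not called did, such as Chac1 with BSO on no-Trp, at 0.39 in the main fit and -0.23 without av10. Between genotypes on no-Cys the 5 calls became 3 at an adjusted p under 0.01, and 4 to 6 when 1 library was left out. For Cse-/- livers on no-Cys against no-Trp, 2 became 4 without the filter and with DESeq2, and 2 to 4 when 1 library was left out. For BSO, 2 became 1 with only the groups compared and at an adjusted p under 0.01, and 1 to 2 with 1 library left out. Between Cse-/- no-Cys and BSO livers, 0 became 0 to 1 with 1 library left out. Between genotypes on no-Trp, 0 became 1 without the filter and with only the groups compared. For Cse+/- no-Cys against control, 0 became 2 without the filter, with only the groups compared and with DESeq2, and 0 to 1 with 1 library left out, where the spread of a lone control liver was taken from the rest. For the interaction, 3 became 0 at an adjusted p under 0.01. The cause was not tested. No paired analysis was possible because the columns carry mouse numbers and no replicate numbers that groups share. Among the 9 genes only Ggt1 did not pass the filter on low counts. Chac1 and Ggct passed it with as few as 35 and 63 counts in a library, and the effect of depth on them was not tested. The 2 control livers limit every comparison with the control diet.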

Other observations

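Genes that bring in cystine or cysteine and genes that break down GSH and its conjugates outside cells were listed as well. Of 7 uptake genes, 4 had enough counts; Slc7a11, Slc7a9 and Slc1a1 did not. Slc3a2, the heavy chain that carries several amino acid transporters to the membrane, was higher in Cse-/- no-Cys livers than in Cse+/- no-Cys livers (0.91 ± 0.178 on the log2 scale, adjusted p = 0.00111), Cse-/- no-Trp livers (0.99 ± 0.194, adjusted p = 0.0039) and BSO livers (0.83 ± 0.176, adjusted p = 0.02) by edgeR. Slc3a1, the partner of Slc7a9, was lower in Cse-/- than in Cse+/- livers on no-Cys (-1.05 ± 0.263, adjusted p = 0.00672) and on no-Trp (-1.45 ± 0.306, adjusted p = 0.0166).

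Of 8 tested genes of extracellular breakdown, 1 was higher and 1 lower between genotypes on no-Cys, a share near the 23.8% of all genes called there: Lap3, a leucine aminopeptidase, at 0.41 ± 0.0929 (adjusted p = 0.00358) and Anpep, an aminopeptidase of the cell surface, at -0.47 ± 0.116 (adjusted p = 0.0061). Ggt5, a relative of Ggt1, was lower in Cse-/- than in Cse+/- livers on no-Trp (-0.70 ± 0.178, adjusted p = 0.0399).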
